A study of Homo sapiens with 6 samples.

Results

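The TNF family genes followed here numbered 10 and were measured on 6 one-colour arrays. They are the receptor genes TNFRSF21, TNFRSF10A, TNFRSF10B, TNFRSF10C, TNFRSF10D, TNFRSF1A, TNFRSF11B, TNFRSF12A and FAS, and the ligand gene TNFSF10. They were chosen by symbol, as death receptors, decoy receptors and a ligand, and because TNFRSF21 had the highest difference in the SFRP4 clone among probes with measurable signal. The SFRP4 value of TNFRSF21 is therefore a description and supports nothing below. The 10 genes have 16 probes among the 24740 probes of the table that carry a single gene symbol. A probe was kept for counts when its brightest array reached 641.8, the median intensity of the whole table. This left 11 of the 16 probes, covering 8 of the 10 genes, among 15227 kept probes. TNFRSF10C and FAS were represented only by probes under that line.

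The arrays came from HM20 cells, labelled as A549, an established human lung adenocarcinoma line. The sources used here do not explain the name HM20. Per the labels 5 stable clones express SFRP1, SFRP2, SFRP3, SFRP4 or SFRP5, secreted Frizzled-related proteins that can bind Wnt ligands, and the sixth population is HM20 Mock, the control. All 6 populations, mock included, spent 24 hours in medium with Wnt3a before RNA extraction, so nothing here separates a response to Wnt3a. Each population was 1 array of 1 clone or mock population, so no difference between a clone and mock has a replicate check.

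Receptors of the TNF family are transmembrane or secreted proteins that bind trimeric ligands. Some carry a cytoplasmic death domain, through which adaptors such as FADD and TRADD recruit caspase-8 or kinase complexes that lead to apoptosis, necroptosis or NF-kB signalling. Decoy receptors bind the same ligands without passing on a full death signal, and lung carcinoma cells commonly express the receptors for TRAIL, the ligand encoded by TNFSF10.

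The SFRP4 array stood apart from the rest. Of the kept probes, 1.29% lay at least 2-fold above all 5 other arrays on SFRP4, against 0.197% to 0.42% for each other array, and 2.37% lay at least 2-fold below all others, against 0.223% to 0.63%. It also held 22 values below 0, and no other array held any. No probe of the 10 genes was below the 10th percentile of any array. The array medians of SFRP1, SFRP2, SFRP3, SFRP4 and SFRP5 were above mock by 0.12, 0.11, 0.05, 0.12 and 0.20 log2 units, a shift that median centring removes. Of 5 epithelial markers, 4 had a probe, and their summed intensity was 1270 in SFRP1, 2795 in SFRP2, 4381 in SFRP3, 1216 in SFRP4 and 6379 in SFRP5, against 4739 in mock. The blood sum, over 4 of 5 markers, was 1838 to 2809 in the clones and 2015 in mock. Among the blood markers, the leukocyte gene PTPRC was below the 10th percentile on every array, while the monocyte gene CD14 read 1464 to 2225 in the clones and 1558 in mock. The endothelial sum was 1673 to 2003 in the clones and 5302 in mock, where PECAM1 read 4134. The alveolar sum was 601.2 to 1216 in the clones and 731.1 in mock, and the fibroblast sum 2928 to 4817 in the clones and 2723 in mock, with SFRP4 the highest array in both. COL1A1 alone read 3640 of the fibroblast sum in SFRP4. The endothelial genes VWF, CDH5 and KDR read 608.0, 357.1 and 203.0 in mock, each within the range of the clones. Every population is labelled as the same cell line, so the sums give marker RNA levels and not shares of cell types. Bulk RNA cannot tell fewer cells with a marker from less RNA per cell.

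All differences below are log2(intensity + 1) of a clone minus mock, so 1 unit is 2-fold. Levels of different probes were not compared, since probes differ in brightness for equal RNA. Of the 55 differences between the 11 kept probes and the 5 clones, 6 were at least 2-fold, and over all kept probes 9.68% of 76135 such differences were, so the members' share was near the background. The highest and lowest of the 6 arrays were at least 2-fold apart for 6 of the 11 probes, against 48.7% of all kept probes. The differences of at least 2-fold were TNFRSF21 in SFRP1 and SFRP4, TNFRSF11B in SFRP4, a TNFRSF10B probe in SFRP5 and both TNFRSF1A probes in SFRP5. The count of 6 thus includes the TNFRSF21 value in SFRP4, by which that gene was chosen.

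**Figure D1:**
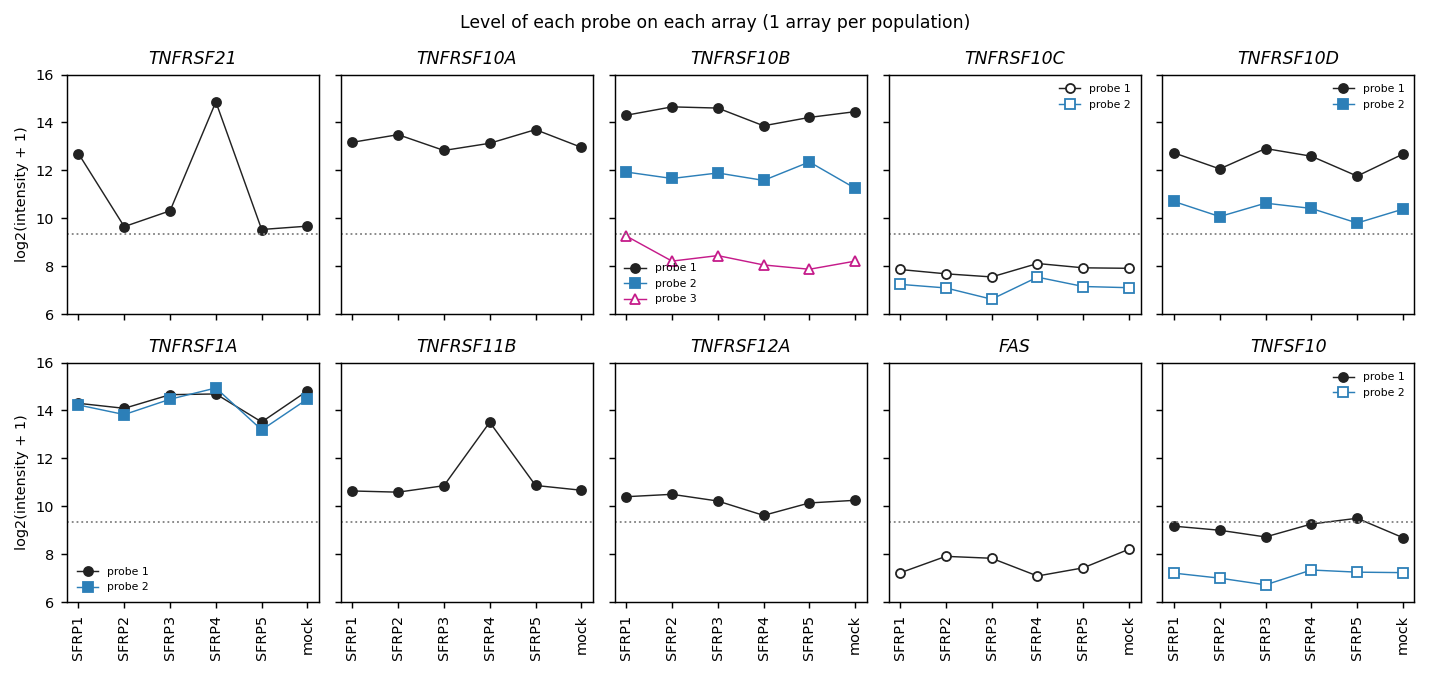
Level of each probe on each array as log2(intensity + 1), with 1 array per population, so there are no error bars. Lines join the points of 1 probe only to guide the eye, open symbols mark probes that did not pass the filter, and the dotted line is the table's median of 9.33. TNFRSF21 is high on SFRP1 and SFRP4, TNFRSF11B is high on SFRP4, and both TNFRSF1A probes are lowest on SFRP5.

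TNFRSF21 encodes death receptor 6, a death-domain receptor best studied in neurons and lymphocytes. Its single probe read 6633 in SFRP1, 804.8 in SFRP2, 1264 in SFRP3, 29813 in SFRP4 and 738.9 in SFRP5, against 815.7 in mock. The SFRP4 clone was highest, the SFRP1 clone next, and the remaining clones lay close to mock. The difference from mock was 5.19 in SFRP4 (36.5-fold) and 3.02 in SFRP1 (8.12-fold). SFRP3 differed by 0.63, SFRP2 by -0.02 and SFRP5 by -0.14. SFRP4 was in turn 4.49-fold above SFRP1. In SFRP4 it ranked 11 among the kept probes and 1 among the 15190 whose SFRP4 and mock readings both reached their array's 10th percentile, which is how the gene was chosen. In SFRP1, a comparison that shares the mock array with it, TNFRSF21 ranked 24 among all kept probes. The TNFRSF21 probe was the only one of the 11 kept probes at least 2-fold above mock in SFRP1, where 4.62% of all kept probes were. None of the 11 was 2-fold below mock there, against 4.41% of all kept probes.

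The arrays with high TNFRSF21 were those with the lowest epithelial sums. KRT19, a keratin of simple epithelia, read 260.4 in SFRP1, 222.7 in SFRP4 and 792.9 to 2687 in the other clones, against 2634 in mock. KRT7 read 298.6 in SFRP1, 118.9 in SFRP4 and, low as well, 150.4 in SFRP3, against 874.0 in mock. EPCAM, an epithelial adhesion gene of the same list, did not follow this order. It read 248.7 in SFRP1, 419.5 in SFRP4, the highest array, and 287.1 to 414.5 in the other clones, against 340.2 in mock. The part of these differences in the TNFRSF21 values was not tested. Of all kept probes, 20 (0.131%) had SFRP1 and SFRP4 both at least 2-fold above each of the other 4 arrays, a pattern looked for after the TNFRSF21 values were seen.

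The genes whose brightest kept probe was most like TNFRSF21 over the 6 arrays were PRICKLE4 (Pearson r of log2 level 0.990), EYA1 (0.989), KCTD7 (0.989), ARRDC3 (0.989) and EIF2AK1 (0.988). These values were picked as the highest among 11962 genes, over only 6 points that share arrays and scaling. An r of at least 0.9 was reached by 234 of the 11962. EYA1 came closest in size, at 1.68 in SFRP1 and 3.04 in SFRP4, from a dim 93.0 in mock. It passed the filter through the SFRP4 array alone, where it read 773.4. ARRDC3 differed by 0.88 in SFRP1 and 1.83 in SFRP4, and EIF2AK1 by 0.45 in SFRP1 and 0.60 in SFRP4.

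Promoters are shown for 3 of the genes whose values are set out most fully. TNFRSF21 varied most between arrays, TNFRSF1A differed alike on its probes in SFRP5, and TNFSF10 is known to respond to interferon. Of the 10 genes, 4 have an entry in the RefSeq promoter table (GRCh38.p14), which holds 250 bases before and 50 after each gene's start. Capitals mark matches on either strand to 6 motifs: TATAAA (a core promoter element), GGGCGG (GC box), CTTTGA (core of the TCF/LEF site used in Wnt signalling), TGANTCA (AP-1 site), CACGTG (E-box) and GAAANNGAA (shortened from the interferon-stimulated response element).
TNFRSF21, chr6:47309856-47310155, minus strand: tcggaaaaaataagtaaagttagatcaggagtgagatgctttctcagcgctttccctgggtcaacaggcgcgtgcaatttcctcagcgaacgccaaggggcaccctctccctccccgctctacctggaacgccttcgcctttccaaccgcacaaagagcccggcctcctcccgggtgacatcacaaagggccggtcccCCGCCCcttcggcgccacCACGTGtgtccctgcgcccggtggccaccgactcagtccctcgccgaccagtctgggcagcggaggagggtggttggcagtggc
TNFRSF1A, chr12:6342027-6342326, minus strand: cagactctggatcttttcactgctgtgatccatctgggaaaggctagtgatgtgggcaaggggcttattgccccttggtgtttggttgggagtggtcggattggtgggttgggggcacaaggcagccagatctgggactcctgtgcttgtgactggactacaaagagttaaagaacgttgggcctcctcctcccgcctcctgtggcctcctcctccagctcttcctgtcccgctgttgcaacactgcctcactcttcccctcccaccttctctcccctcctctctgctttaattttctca
TNFSF10, chr3:172523381-172523680, minus strand: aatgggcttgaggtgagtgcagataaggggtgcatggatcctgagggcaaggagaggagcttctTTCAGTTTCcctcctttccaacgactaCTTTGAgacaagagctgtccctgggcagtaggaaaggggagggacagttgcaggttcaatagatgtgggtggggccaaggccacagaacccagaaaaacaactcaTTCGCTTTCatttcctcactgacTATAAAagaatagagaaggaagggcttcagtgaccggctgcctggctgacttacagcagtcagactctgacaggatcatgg
The TNFRSF21 window holds a GC box, present in 45.0% of 35116 promoters in the table, and an E-box, present in 7.26%. None of the 6 motifs was found in the TNFRSF1A window. The TNFSF10 window holds TATAAA (11.5% of promoters), a TCF/LEF core (12.9%) and 2 matches to the interferon element (8.11%), with no overlap between matches. The interferon motif was first searched 1 letter longer and was shortened after those matches had been seen. The longer form matched TNFSF10 less often and was held by a smaller share of promoters. AP-1 sites, found in 7.71% of promoters, were in none of the 3. A match is a string of letters and not a measured binding site.

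TNFRSF11B encodes osteoprotegerin, a secreted decoy receptor for RANKL that also binds TRAIL. Its probe read 1590 in SFRP1, 1540 in SFRP2, 1856 in SFRP3, 11676 in SFRP4 and 1875 in SFRP5, against 1631 in mock. The SFRP4 reading stood alone, while the other clones lay on either side of mock. The difference was 2.84 in SFRP4 (7.15-fold) and -0.08 to 0.20 in the others. Leaving out TNFRSF21, chosen by its SFRP4 value, TNFRSF11B was the only kept probe of the 10 genes at least 2-fold above mock in SFRP4. Over all kept probes, 5.85% were above and 7.85% below there, and none of the 10 genes had a kept probe 2-fold below. TNFRSF11B also lay at least 2-fold above all other arrays on SFRP4, the array with the most such probes. TNFRSF11B has no other probe, and the fibroblast and alveolar marker sums were also highest in SFRP4. Their part in the difference was not tested.

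**Figure D2:**
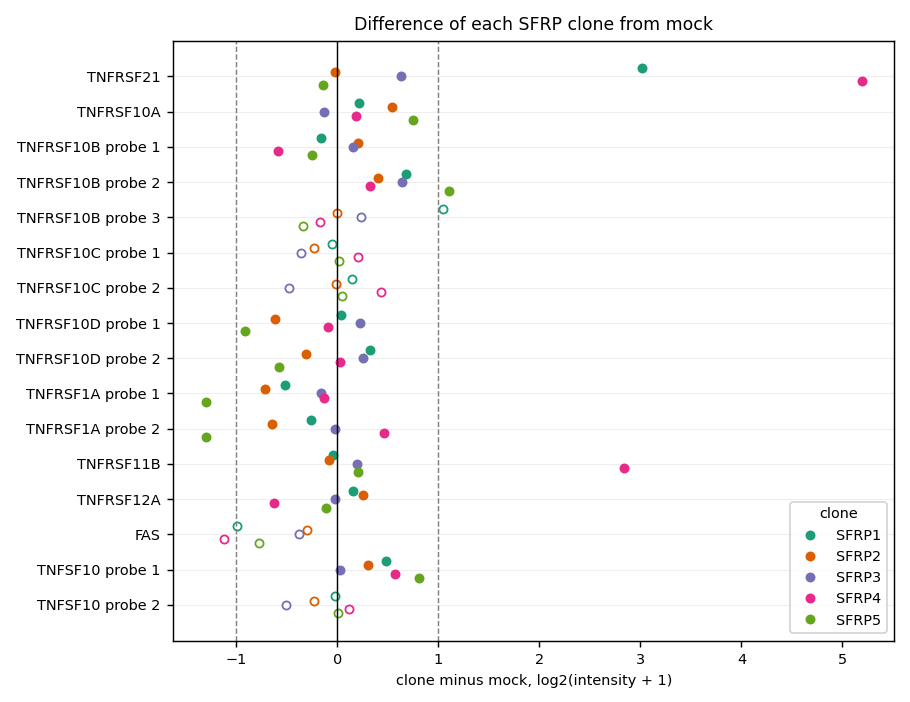
Difference of each SFRP clone from mock for the 16 probes on the log2(intensity + 1) scale, each point 1 array minus the mock array. Dashed lines mark 2-fold, and open circles are probes that did not pass the filter. The far points on the right are TNFRSF21 in SFRP1 (3.02) and SFRP4 (5.19) and TNFRSF11B in SFRP4 (2.84).

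TNFRSF1A encodes TNF receptor 1, the widely expressed death-domain receptor for TNF. Probe 1 read 20187 in SFRP1, 17489 in SFRP2, 25845 in SFRP3, 26446 in SFRP4 and 11739 in SFRP5, against 28866 in mock. Probe 2 read 19158 in SFRP1, 14583 in SFRP2, 22655 in SFRP3, 31434 in SFRP4 and 9323 in SFRP5, against 22915 in mock. On each probe SFRP5 was lowest and SFRP2 next lowest. The difference from mock in SFRP5 was -1.30 on each probe, and in SFRP2 -0.72 on probe 1 and -0.65 on probe 2. The probes had opposite signs in SFRP4, at -0.13 and 0.46. The difference in SFRP5 lay between -1.50 and -1.27 under the other scalings for either probe. The TNFRSF1A probes were the 2 of 11 kept probes at least 2-fold below mock in SFRP5, where 6.51% of all kept probes were, and since they measure 1 gene they are not separate findings.

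The ligand gene TNFSF10 and its receptors TNFRSF10A, TNFRSF10B, TNFRSF10C and TNFRSF10D form the TRAIL group. In the RefSeq gene table the 4 receptor genes follow each other with no other protein-coding gene between them. TNFRSF10A and TNFRSF10B encode the death-domain receptors, TNFRSF10C a decoy receptor anchored to the membrane by a lipid, and TNFRSF10D a decoy with a truncated death domain.

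TNFRSF10A read 9193 in SFRP1, 11532 in SFRP2, 7265 in SFRP3, 8972 in SFRP4 and 13327 in SFRP5, against 7941 in mock. SFRP5 was highest and SFRP3 lowest, and every difference was under 2-fold, from -0.13 in SFRP3 to 0.75 in SFRP5.

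TNFRSF10B gave no single answer. Probe 1 read 20111 in SFRP1, 25783 in SFRP2, 24916 in SFRP3, 14867 in SFRP4 and 18936 in SFRP5, against 22447 in mock, and its lowest difference was -0.59 in SFRP4. Probe 2 read 3904 in SFRP1, 3230 in SFRP2, 3807 in SFRP3, 3053 in SFRP4 and 5222 in SFRP5, against 2442 in mock, and was above mock in every clone. Probe 2 differed by 1.10 in SFRP5, where probe 1 differed by -0.25 and the dim probe 3 by -0.34. Probe 2 was the 1 of 11 kept probes at least 2-fold above mock in SFRP5, where 5.81% of all kept probes were, and with median centring it differed by 0.90. Probe 3 read 613.8 in SFRP1 and 233.3 to 346.6 in the other clones, against 296.0 in mock, a difference of 1.05 in SFRP1. Probes 1 and 2 had the same sign in 2 of the 5 clones, and the transcripts that each probe measures are not known here.

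The decoy gene TNFRSF10D was lowest in SFRP5 on each of its probes. Probe 1 read 6776 in SFRP1, 4267 in SFRP2, 7671 in SFRP3, 6182 in SFRP4 and 3473 in SFRP5, against 6570 in mock. Probe 2 read 1664 in SFRP1, 1073 in SFRP2, 1588 in SFRP3, 1362 in SFRP4 and 887.6 in SFRP5, against 1331 in mock. The difference in SFRP5 was -0.92 on probe 1 and -0.58 on probe 2, and in SFRP2 -0.62 and -0.31. None reached 2-fold, although probe 1 in SFRP5 differed by -1.12 with median centring. SFRP5 was lowest of the 6 arrays on all 4 probes of TNFRSF1A and TNFRSF10D, and highest for TNFRSF10A and for probe 2 of TNFRSF10B. The share of all kept probes with SFRP5 lowest or highest was not counted, so this order is a description. None of the 11 kept probes was at least 2-fold below or above all other arrays on SFRP5, against 0.63% and 0.42% of all kept probes. SFRP5 also had the highest array median, 0.20 log2 units above mock.

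TNFSF10 probe 1 read 575.6 in SFRP1, 509.8 in SFRP2, 420.8 in SFRP3, 613.5 in SFRP4 and 722.7 in SFRP5, against 412.6 in mock. It passed the filter through the SFRP5 array alone, and its differences ran from 0.03 in SFRP3 to 0.81 in SFRP5. Probe 2 was dimmer, at 104.5 to 161.2 in the clones and 149.4 in mock, and had the same sign as probe 1 in 2 of 5 clones. TNFSF10 is a known interferon-responsive gene. The interferon motif shown above was shortened after matches had been seen, so its matches in the TNFSF10 promoter are a description and no support. Of 28 other interferon-stimulated genes, 24 had a kept probe. They had a median difference of -2.04 in SFRP3 and -1.28 in SFRP4, and 19 and 15 of them were at least 2-fold below mock in these clones. These compare with 3.07% of all kept probes in SFRP3 and 7.85% in SFRP4. TNFSF10 probe 1 differed by 0.03 and 0.57 in the same clones, and the dimmer probe 2 by -0.51 and 0.11. In SFRP1 the list's median was -0.89, in SFRP2 0.51 and in SFRP5 -0.39, against 0.48, 0.30 and 0.81 for TNFSF10 probe 1 and -0.02, -0.23 and 0.01 for probe 2. Both TNFSF10 probes thus lay above the list's median in SFRP1, SFRP3, SFRP4 and SFRP5, and below it in SFRP2. They had opposite signs in SFRP1, SFRP2 and SFRP3. No difference of either probe reached 2-fold, and probe 2 was dim. The median over all genes was 0.03 to 0.10 in the 5 clones. In SFRP1, 10 of the 24 listed genes were at least 2-fold below mock, against 4.41% of all kept probes. In SFRP5, 5 were at least 2-fold below, against 6.51%, and in SFRP2, 5 were at least 2-fold above, against 2.8%. RSAD2, an antiviral enzyme gene of this list, differed by -3.77 in SFRP3, -3.87 in SFRP4 and 2.02 in SFRP2. MX1, an antiviral GTPase gene, differed by -2.19 in SFRP3 and -2.02 in SFRP4, OAS1 by -3.65 and -4.55, and IFIT1 by -4.30 and 0.27. In SFRP1, RSAD2, MX1, OAS1 and IFIT1 differed by -2.74, -2.17, -4.05 and -3.16. In SFRP5 they differed by -0.40, 0.03, 0.50 and -2.47.

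**Figure D3:**
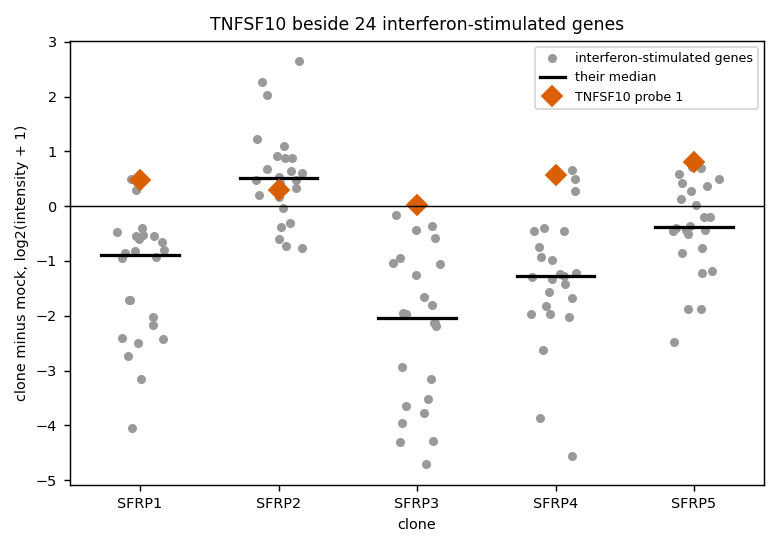
Difference from mock in each clone for 24 interferon-stimulated genes (grey points, brightest kept probe of each gene), their median (black bar) and TNFSF10 probe 1 (diamond), on the log2(intensity + 1) scale. In SFRP3 the median is -2.04 and TNFSF10 is at 0.03, and in SFRP4 they are at -1.28 and 0.57. In SFRP1 they are at -0.89 and 0.48, in SFRP2 at 0.51 and 0.30, and in SFRP5 at -0.39 and 0.81.

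The remaining members were dim or varied little. TNFRSF10C probe 1 read 187.0 to 274.7 in the clones and 239.6 in mock, and probe 2 read 97.2 to 184.5 in the clones and 136.3 in mock. Both were highest in SFRP4 and lowest in SFRP3, as was TNFSF10 probe 2. SFRP3 was the array with the lowest 10th percentile, 53.2, against 67.0 to 91.0 in the other clones and 69.5 in mock. The part of this floor in those dim readings was not tested. FAS, the death-domain receptor for FAS ligand, read 147.8 in SFRP1, 240.2 in SFRP2, 226.5 in SFRP3, 135.3 in SFRP4 and 171.4 in SFRP5, against 295.1 in mock, the highest array. Its probe was too dim for the filter, and its differences were -0.99, -0.30, -0.38, -1.12 and -0.78 in SFRP1 to SFRP5. With pseudocount 64 the SFRP4 difference was -0.85. TNFRSF12A encodes Fn14, the receptor for the ligand TWEAK, and has no death domain. It read 1349 in SFRP1, 1449 in SFRP2, 1196 in SFRP3, 787.1 in SFRP4 and 1126 in SFRP5, against 1216 in mock, with SFRP4 lowest, at a difference of -0.63.

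**Figure D4:**
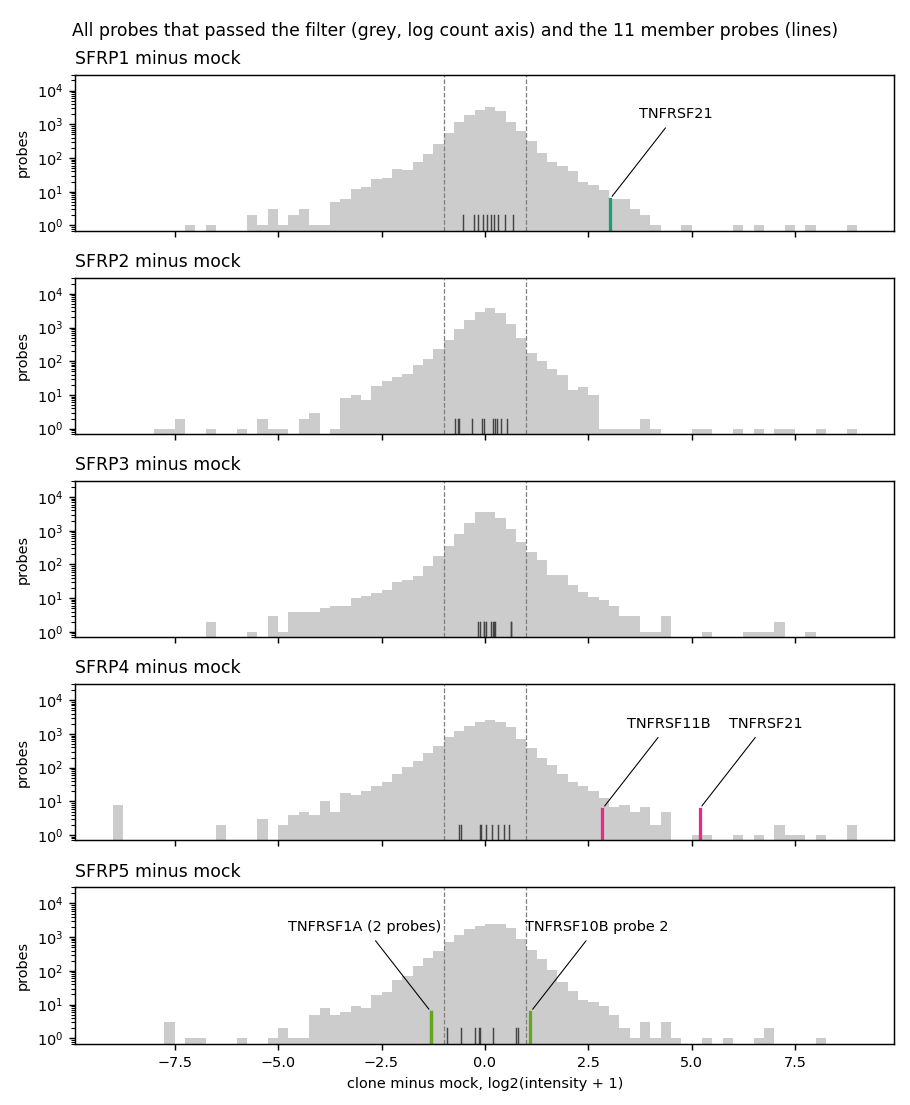
Number of kept probes (log count axis) by difference from mock in each clone, with values beyond the axis range placed in the end bins, and the 11 kept probes of the 10 genes as vertical lines. Named, coloured lines are at least 2-fold from mock (dashed lines): 1 probe in SFRP1, none in SFRP2 or SFRP3, 2 in SFRP4 and 3 in SFRP5.

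In SFRP2 none of the 11 kept probes was at least 2-fold from mock, where 2.8% of all kept probes were higher and 3.83% lower. In SFRP3 there was likewise none, against 3.66% higher and 3.07% lower. The 5 clones were then set against mock as 1 group, with limma across all 15227 kept probes. Its error term comes from the variation among clones that carry 5 different genes, and the fit takes the lone mock array to vary to the same degree. Of the kept probes 5 (0.0328%) were called at an adjusted p under 0.05, and 321 (2.11%) had an unadjusted p under 0.05. None of the 10 kept probes other than TNFRSF21 was called, with limma adjusted p = 1 for each and unadjusted p of 0.14 to 0.897. The lowest unadjusted p was that of TNFRSF10B probe 2, which differed by 0.63 ± 0.30 (SD, n = 5 clones) and was above mock in 5 of 5 clones. The brighter probe 1 of this gene differed by a mean of -0.13 and was above mock in 2 of 5 clones. Of all kept probes, 14.3% were above mock in 5 of 5 clones. TNFSF10 probe 1 was too, but it was kept only through its SFRP5 reading, and probe 2 was above mock in 2 of 5 clones. TNFRSF1A probe 1 differed by -0.56 ± 0.48 (SD, n = 5 clones) and was below mock in 5 of 5 clones, as were 8.76% of all kept probes. TNFRSF1A probe 2 differed by a mean of -0.35 and was below mock in 4 of 5 clones. The 5 differences of a probe share the mock array, so they are not independent, and their SD leaves out that array's error. Every clone's array median was also above mock, by 0.05 to 0.20 log2 units. A p that misses the threshold does not show that the clones and mock are alike.

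Genes that act after the receptors were read from lists of adaptors and of downstream effectors, using each gene's brightest kept probe. Of 20 genes of receptor adaptors and the death-inducing complex, 19 were kept, and in SFRP4 4 of them were at least 2-fold below mock and none above, with 3 to 5 below across the scalings tried. Over all kept probes 7.85% were 2-fold below there. The list median was -0.25, against 0.06 over all genes. BIRC3, which encodes an inhibitor of apoptosis bound to TRAF2, read 689.2 in SFRP1, 3576 in SFRP2, 1454 in SFRP3, 228.2 in SFRP4 and 1960 in SFRP5, against 1641 in mock. Its difference was -2.84 in SFRP4, -1.25 in SFRP1 and 1.12 in SFRP2. The other 3 low genes in SFRP4, named after their values were seen, were CASP8 (the initiator caspase, -2.12, with -1.43 on its other probe), RBCK1 (a subunit of the linear ubiquitin ligase, -1.15) and TNFAIP3 (the NF-kB inhibitor A20, -1.02, but -0.95 under another scaling). CASP8 read 2323 in SFRP1, 3789 in SFRP2, 3385 in SFRP3, 855.4 in SFRP4 and 3697 in SFRP5, against 3718 in mock. SFRP4 was the lowest array for CASP8, and also the array that stood apart. BIRC2, the close relative of BIRC3, differed by 0.86 in SFRP2 and -0.75 in SFRP4. CYLD, a deubiquitinase, ran from -0.71 in SFRP1 to 0.88 in SFRP3, and SHARPIN, another subunit of the linear ubiquitin ligase, was lowest in SFRP3 at -1.20. In the other clones 0 to 2 of the 19 genes were 2-fold away in either direction. Over all kept probes 2.8% to 5.81% were 2-fold above and 3.07% to 6.51% below in those clones.

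Of 19 downstream apoptosis and necroptosis genes, 14 were kept. In each clone 0 or 1 of the 14 was at least 2-fold above mock and 0 to 2 at least 2-fold below. Over all kept probes 2.8% to 5.85% were above and 3.07% to 7.85% below, depending on the clone. MCL1, an anti-apoptotic BCL2 relative, differed by 1.71 in SFRP5, 0.88 in SFRP1, 0.87 in SFRP2, 0.66 in SFRP3 and -0.28 in SFRP4. HTRA2, a mitochondrial protease, differed by -1.28 in SFRP2, -1.22 in SFRP4 and -1.28 in SFRP5. BCL2L11, a pro-apoptotic gene, differed by 0.97 in SFRP4, and BIRC5 (survivin) by -0.79 in SFRP5. The 2 genes at least 2-fold below mock in SFRP4 on their brightest kept probe were HTRA2 and BCL2L1. BCL2L1, the gene of the anti-apoptotic BCL-XL, differed by -1.53 and was named after its value was seen. DIABLO and MLKL, named likewise, differed in SFRP4 by 0.36 and -0.64 on the brightest kept probe. On their other kept probe they differed by -1.52 and -1.14, so the probes of DIABLO had opposite signs.

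**Figure D5:**
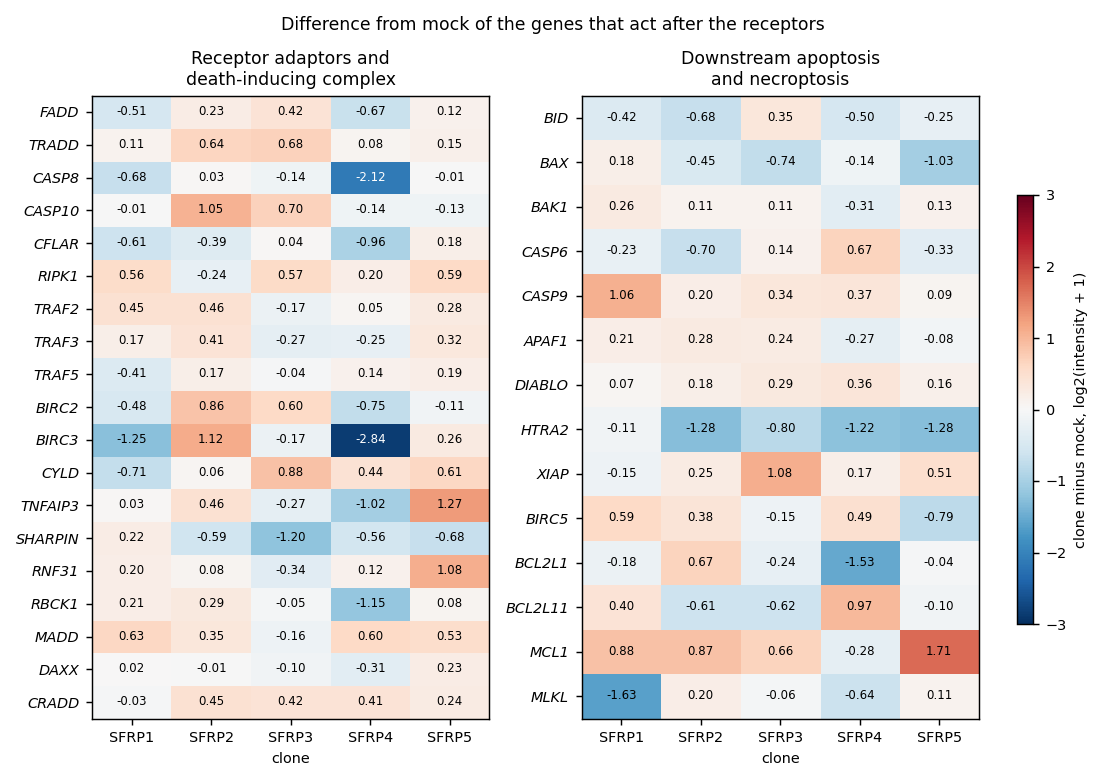
Difference from mock in each clone of 19 adaptor genes (left) and 14 downstream genes (right), written in each cell on the log2(intensity + 1) scale. In SFRP4 the lowest cells are BIRC3 (-2.84), CASP8 (-2.12) and BCL2L1 (-1.53).

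Other receptors and ligands of the family were read the same way. Of 20 other receptor genes, 12 were kept, and 0 to 1 per clone were at least 2-fold above mock and 0 to 2 below. The shares over all kept probes were 2.8% to 5.85% above and 3.07% to 7.85% below, depending on the clone. TNFRSF19, an orphan receptor gene without a death domain, read 1389 in SFRP1, 892.3 in SFRP2, 3243 in SFRP3, 1524 in SFRP4 and 2732 in SFRP5, against 4377 in mock. All clones were below mock, with differences of -2.29 in SFRP2, -1.66 in SFRP1 and -1.52 in SFRP4, and its other probe gave -2.32, -1.50 and -1.67. TNFRSF1B, TNF receptor 2, differed by -1.46 in SFRP2 and 0.45 in SFRP4. TNFRSF14 differed by 1.07 in SFRP4, but by 0.95 under another scaling, and NGFR by -0.06 to 0.76. Of 17 other ligand genes, 7 were kept. Per clone, 0 to 1 of them were at least 2-fold above mock and 1 to 2 below, beside the same shares over all kept probes. CD70, the ligand of CD27, read 212.4 in SFRP1, 406.4 in SFRP2, 470.3 in SFRP3, 504.2 in SFRP4 and 2074 in SFRP5, against 1360 in mock. TNFSF13B, the gene of the B cell factor BAFF, was brighter than mock in all clones, by 0.44 in SFRP5 to 1.73 in SFRP4, from a dim 196.4 in mock. It passed the filter through the SFRP4 array alone, where it read 653.2. TNFSF12, the gene of TWEAK, differed by -1.26 in SFRP5 and -0.96 in SFRP3. TNFSF9 differed by -1.07 in SFRP1, but by -0.99 under another scaling.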

How the data were processed

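The deposited table holds linear intensity values, 1 column per array. The labels' protocols give Cy5-labelled amplified RNA. They name neither the scanner software nor any background correction or scaling. The authors' values were each array's whole numbers times 1 factor (0.795 on SFRP2 to 1.37 on SFRP4; below 2000, 100% of values within 0.05 scanner units). They were kept as deposited, set to at least 0, given a pseudocount of 1 and log2 transformed with pandas 2.3.3 in Python 3.11.15. The number of arrays limits the precision. Probes were named by the platform annotation provided, and only those with 1 symbol were used. Groups came from sample titles. The set of clones was tested with limma 3.58.1 in R 4.3.3 (lmFit, eBayes, two-sided, Benjamini-Hochberg over all kept probes), tested on simulated data of the same design. Named genes were all probes of the members, the 4 genes per list with the largest median absolute difference, and the 5 genes most like TNFRSF21 and TNFSF10. The members and lists were chosen with earlier results of these data known. Alternatives were quantile normalization, median centring, pseudocount 64, a floor at the 10th percentile, other filters, the brightest probe per gene, a mean-variance trend and leaving out each clone.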

Additional observations from a re-analysis of the deposited data

Results flagged for a closer look

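The TNFRSF11B reading in SFRP4, 11676, lay far from those of the other 4 clones, 1540 to 1875. On the log2 scale its gap to the next clone was 0.903 of the range of the 5 clones, above Dixon's critical value of 0.71. The clones express different genes and are not replicates, about 1 in 20 groups is picked out by chance alone, and all 16 probes were examined.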

How the results depend on the processing

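The 6 differences of at least 2-fold among kept probes kept their sign under every scaling tried, and all but TNFRSF10B probe 2 in SFRP5 (0.90 with median centring) stayed at least 2-fold. With no filter SFRP1 had 2 probes at least 2-fold from mock instead of 1, the addition being TNFRSF10B probe 3. In SFRP4 the dim FAS probe was also added, at -1.12. With the brightest probe per gene SFRP5 had 1 instead of 3, and 1 probe was lower over all clones instead of 2. Without the SFRP4 array, an alternative chosen after seeing the data, 2 differences were higher instead of 4. Of 80 probe-by-clone differences, 8 changed sign under some scaling, all of them at most 0.14 in size. The limma calls over all probes, none of them a member, numbered 5, but 2 with the filter on the mean and 2 with a mean-variance trend. Without 1 clone each they numbered 2 (without SFRP5) to 6 (without SFRP4), with 3 without SFRP2 and 3 without SFRP3. The cause was not tested. No member was called in any of the 14 fits. No paired analysis was possible because every array carries the same replicate number, 1. With 1 array per population, neither clone-to-clone variation within an SFRP gene nor array error can be measured.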

Other observations

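TNFRSF10A, TNFRSF10B, TNFRSF10C, TNFRSF10D and FAS are known targets of p53, and other targets were read beside them. Of 14 such genes 12 were kept, and the list's median was -0.13 in SFRP1, 0.23 in SFRP2, 0.18 in SFRP3, 0.03 in SFRP4 and 0.20 in SFRP5. Over all genes the median was 0.03 in SFRP3 to 0.10 in SFRP5. CDKN1A, the gene of the cell cycle inhibitor p21, was above mock in all clones by 0.18 to 0.78, and by 0.12 to 0.70 on its other probe. Of all kept probes, 14.3% were above mock in all 5 clones. SESN2, a stress-response gene, differed by 2.58 in SFRP5 and 1.52 in SFRP2, PLK3 by 1.65 in SFRP5, and SESN1 by 0.07 to 0.73. The 3 genes at least 2-fold above mock in SFRP5 were SESN2, PLK3 and GADD45A (1.03, and 0.83 under another scaling), the last named after its value was seen. Over all kept probes 5.81% were at least 2-fold above mock in SFRP5. Other genes of the list, named after their values were seen, were below mock in most clones. MDM2 ran from -0.86 in SFRP1 to 0.19 in SFRP3, PMAIP1 from -0.94 in SFRP1 to 0.42 in SFRP2, and RRM2B from -0.80 in SFRP3 to 0.03 in SFRP4. BBC3, TP53I3, ZMAT3 and BTG2 had differences of both signs. FAS was below mock in every clone.

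The genes whose level was most like that of TNFSF10 probe 1 over the 6 arrays were TMEM72 (Pearson r 0.997), SYBU (0.993), TTLL10 (0.992), CCL21 (0.992) and CDH8 (0.991), none of them on the interferon list. As many as 553 of 11962 genes had an r of at least 0.9. TNFSF10 probe 1 was dim and was highest on SFRP5, the array whose median was also highest, 0.20 log2 units above mock. The part of array scaling in this shared order was not tested. SYBU varied most of the 5, with 1.52 in SFRP5 and 0.97 in SFRP1, and TMEM72 differed by at most 0.53.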
